A study of Mus musculus with 8 samples.

Results

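Adipokines are proteins that fat cells secrete, and 7 of them are described here at the mRNA level in brown adipose tissue (BAT), the heat-producing fat depot of rodents. The genes are Lep (leptin), Adipoq (adiponectin), Retn (resistin), Cfd (complement factor D, or adipsin), Rarres2 (chemerin), Nrg4 (neuregulin 4) and Metrnl (meteorin-like). They were taken as a list of secreted adipokine and brown fat hormone genes, and all 7 were found among the 31053 Ensembl genes of the count table. All 7 also passed the filter on low counts.

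Leptin is released by fat cells in proportion to stored fat and acts on the leptin receptor in the hypothalamus to restrain feeding. Adiponectin is an abundant product of mature adipocytes that raises insulin sensitivity in liver and muscle, and adipsin is the serine protease that starts the alternative complement pathway by cleaving factor B. Chemerin draws in immune cells through its receptor Cmklr1, neuregulin 4 is a brown fat hormone that signals through the receptors Erbb3 and Erbb4, and meteorin-like is a hormone linked to browning of fat. Retn codes for resistin, which in mice is made by adipocytes and opposes insulin action.

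BAT of 4 wild-type (WT) and 4 db/db mice was profiled by bulk RNA-seq, 1 library per sample. All mice were males aged 8 weeks and are labelled C57BL6/J. The db/db mice (B6.BKS(D)-Leprdb/J) have the db mutation in both copies of Lepr, the gene of the leptin receptor, in every cell, and they overeat and become obese, whereas the WT mice carry no mutation. Per the study's methods the mice received normal diet, and tissue was harvested after fasting. The sources used here name more than 1 supplier for WT mice, so whether both genotypes came from the same supplier is not settled, and a difference in supplier could not be told apart from genotype. Replicates are separate mice per the study's legends, although the labels name no animals.

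Sequencing depth was 2374079 to 2615009 counts per WT library, and db/db libraries held 2382722 to 3240074. Levels are given as CPM, counts scaled by library total and TMM factor, in which 3 counts, taken as the floor of detection, were worth 0.902 to 1.33 CPM. The labels name the stromal vascular fraction, the part of fat without adipocytes, as the cell type, beside brown adipose tissue as the tissue. Against that label, the lipid droplet gene Plin1 stood at 521 ± 109 CPM in WT and 898 ± 48.5 CPM in db/db, and the brown fat uncoupling protein gene Ucp1 at 2248 ± 387 and 1429 ± 457 CPM (mean ± SD of 4 libraries), so the libraries held adipocyte mRNA. Lepr itself was at 0 counts in each of the 8 libraries, WT included, which gives no check of the genotypes. Sets of marker genes for other cells differed between the genotypes. The 12 skeletal muscle markers together reached 439 to 1557 CPM in WT and 2306 to 11454 CPM in db/db, where replicate 1 was highest. The 10 macrophage markers reached 160 to 210.4 CPM against 744 to 1326 CPM, and the 7 fibroblast markers 545 to 683 CPM against 1050 to 2144 CPM.

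Leptin, complement factor D and chemerin showed the widest differences between WT and db/db mice. In db/db BAT, Lep, Rarres2 and Metrnl rose, Cfd and Nrg4 fell, and Adipoq and Retn did not pass the test, for which edgeR's quasi-likelihood test was used, with Benjamini-Hochberg adjustment over 9264 genes. The 5 called genes were also the 5 whose CPM ranges did not overlap between the genotypes. Over all genes tested, 27.7% were called (15.8% higher and 11.9% lower in db/db) and 28.1% did not overlap. The median log2 fold change of the 7 genes was 0.32, beside 0.0066 over all genes tested.

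**Figure D1:**
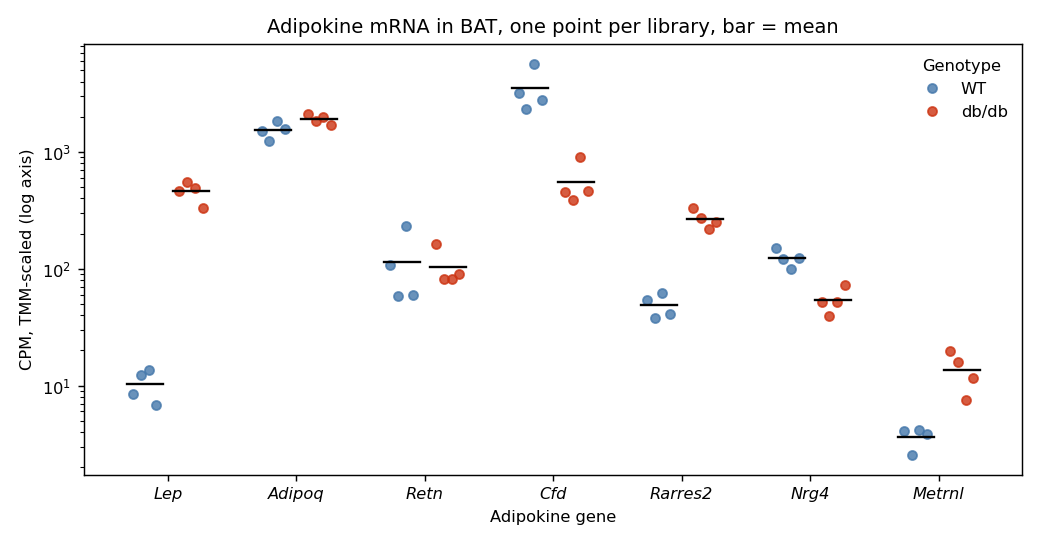
CPM of the 7 adipokine genes on a log axis, with 1 point per library, blue for WT and red for db/db, and a bar at the mean of 4 libraries. The points of Lep, Cfd, Rarres2, Nrg4 and Metrnl do not overlap between the genotypes, while those of Adipoq and Retn do.

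Leptin mRNA was low in WT BAT and abundant in db/db BAT. Lep (ENSMUSG00000059201, chromosome 6, 29060220 to 29073877 on the plus strand of GRCm38/mm10) had 8.50, 12.2, 13.5 and 6.79 CPM in WT replicates 1 to 4, and 467, 557, 488 and 328 CPM in db/db replicates 1 to 4. These values rest on 16 to 36 counts per WT library and on 881 to 1750 counts per db/db library. Every db/db library was thus far above every WT library. The mean went from 10.3 ± 3.15 to 459.7 ± 96.0 CPM (SD, n = 4 each). By edgeR the log2 fold change was 5.47 (SE 0.23, 95% interval 5.0 to 5.95), a fold of 44.4, with an adjusted p of 2.44e-11. Only 11 of the 9264 genes tested had a larger rise on the log2 scale. In bulk tissue, more mRNA per cell and more cells that make it cannot be told apart.

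The 250 bases before the Lep start site (RefSeq, GRCm38.p6, chr6:29059971-29060220, plus strand, 5′ to 3′) are shown because Lep changed most. Capitals mark matches to a set of short motifs searched on both strands, namely TATAA (the core promoter element), CCAAT (the NF-Y site), GGGCGG (the GC box), CACGTG (the E-box), TTNNGNAA (the C/EBP-type site) and AGGTCA (the nuclear receptor site).
Lep: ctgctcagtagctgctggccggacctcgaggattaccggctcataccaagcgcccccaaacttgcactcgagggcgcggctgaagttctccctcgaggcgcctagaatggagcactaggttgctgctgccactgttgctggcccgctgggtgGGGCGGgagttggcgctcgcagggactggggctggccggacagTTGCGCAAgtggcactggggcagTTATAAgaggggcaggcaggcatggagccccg
The capitals are, in order, a GC box at 98 to 93 bases before the start, a C/EBP-type match at 55 to 48 bases, and TATAA at 31 to 27 bases, which overlaps a match on the opposite strand at 32 to 28 bases. Of 32817 mouse promoter windows of this length, 32.7% held the GC box, 36.8% the C/EBP-type letters and 22.8% TATAA, so each match is common. The window had 65.6% G and C, against a median of 52.4% over all windows.

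Adiponectin mRNA, by contrast, was high in both genotypes. Adipoq (ENSMUSG00000022878, chromosome 16, 23146536 to 23158028, plus strand) had 1495, 1245, 1828 and 1567 CPM in the WT libraries and 2112, 1848, 1992 and 1684 CPM in the db/db libraries. WT replicate 3 lay above db/db replicate 4, so the groups overlapped. The means were 1534 ± 239.7 and 1909 ± 185 CPM (SD, n = 4 each). The log2 fold change was 0.32 (SE 0.14, 95% interval 0.01 to 0.62), and its adjusted p in edgeR was 0.112. A rise of up to 0.62 on the log2 scale therefore lies within the interval.

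The Adipoq window (chr16:23146286-23146535, plus strand, same build and capitals) is shown for comparison with that of Lep.
Adipoq: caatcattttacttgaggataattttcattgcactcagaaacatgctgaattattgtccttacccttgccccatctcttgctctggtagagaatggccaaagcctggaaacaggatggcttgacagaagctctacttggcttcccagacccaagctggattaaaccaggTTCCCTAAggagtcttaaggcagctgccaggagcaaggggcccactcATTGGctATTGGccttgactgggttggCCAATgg
It held a C/EBP-type match at 81 to 74 bases before the start and CCAAT at 34 to 30, 27 to 23 and 7 to 3 bases, the first pair on the opposite strand. CCAAT occurred in 33.8% of all windows. Neither TATAA nor the GC box was found in these letters.

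Set against Adipoq within each library, which cancels library size, Lep moved in the same way. WT libraries held 0.433 to 0.983 Lep counts per 100 Adipoq counts, and db/db libraries held 19.5 to 30.1. The log2 ratio had a mean of −7.16 ± 0.48 among WT and of −2.07 ± 0.27 among db/db libraries (SD of 4 libraries), which differ by 5.08. The exact two-sided permutation test over the 8 libraries gave p = 0.0286, which is the smallest value that 4 against 4 libraries can give.

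Complement factor D went the other way and had the largest fall of the adipokines. Cfd (ENSMUSG00000061780, chromosome 10, 79890853 to 79892655, plus strand) had 3212, 2305, 5697 and 2772 CPM in WT and 457, 387, 899 and 467 CPM in db/db. The highest db/db library, replicate 3, remained below the lowest WT library. Mean levels were 3497 ± 1513 and 552 ± 234 CPM (SD, n = 4 each). The edgeR log2 fold change was −2.66 (SE 0.28, 95% interval −3.26 to −2.07), 6.34-fold lower, with an adjusted p of 2.59e-06. In the order of log2 fold changes Cfd was number 13 from the lowest of 9264 genes.

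The Cfd window (chr10:79890603-79890852, plus strand, same build) is shown because it is the counterpart that fell.
Cfd: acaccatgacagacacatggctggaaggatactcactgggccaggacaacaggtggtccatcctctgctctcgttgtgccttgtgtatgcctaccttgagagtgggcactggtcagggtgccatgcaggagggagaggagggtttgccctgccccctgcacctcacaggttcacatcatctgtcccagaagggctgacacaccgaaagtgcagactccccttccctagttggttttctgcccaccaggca
None of the motifs searched occurs in these letters, so the run has no capitals. The same held for Retn, whereas the Nrg4 window had 4 matches and the Metrnl window 4, the latter being the GC box each time. RefSeq windows were matched for 6 of the 7 genes, all but Rarres2.

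Chemerin mRNA rose in db/db BAT. Rarres2 (ENSMUSG00000009281, chromosome 6, 48569696 to 48572789, minus strand) had 53.8, 38.0, 62.0 and 41.2 CPM in WT and 329, 272, 218 and 249 CPM in db/db. The ranges were far apart, and replicate 1 was the highest db/db library. The means were 48.7 ± 11.2 and 267 ± 47.0 CPM (SD, n = 4 each). The log2 fold change was 2.45 (SE 0.18, 95% interval 2.08 to 2.82), a fold of 5.47, with an edgeR adjusted p of 3.25e-08. Rarres2 shares 892 exon bases with Lrrc61 on the opposite strand, and since strand use in counting is not stated its counts are uncertain to that extent. Lrrc61 had 18.9 ± 5.59 and 17.0 ± 2.86 CPM and was not called.

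Neuregulin 4, which in mice is enriched in brown fat, fell. Nrg4 (ENSMUSG00000032311, chromosome 9, 55220222 to 55326844, minus strand) had 149, 122, 100.3 and 123 CPM in WT and 52.3, 39.1, 52.3 and 72.2 CPM in db/db. The lowest WT library was above the highest db/db library. Its mean went from 123 ± 19.9 to 54.0 ± 13.6 CPM (SD, n = 4 each), a log2 fold change of −1.20 (SE 0.18, 95% interval −1.57 to −0.82). The level was 2.29-fold lower, with an edgeR adjusted p of 7.64e-05. Nrg4 shares 368 exon bases with Fbxo22 on the opposite strand, which rose from 4.44 ± 1.22 to 12 ± 1.42 CPM, so the Nrg4 counts are uncertain. With the mean log2 CPM of the muscle markers added to the model, the log2 fold change of Nrg4 was −0.93 and its adjusted p 0.0779. The sums of these markers did not overlap between the genotypes, so this model cannot part their level from genotype.

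Meteorin-like was the least abundant of the genes. Metrnl (ENSMUSG00000039208, chromosome 11, 121701544 to 121716306, plus strand) had 4.05, 2.53, 4.13 and 3.82 CPM in WT, from 6 to 11 counts, and 19.6, 15.9, 7.54 and 11.5 CPM in db/db, from 17 to 65 counts. No db/db library reached down to the WT range, although replicate 3 came near it. Mean levels were 3.63 ± 0.746 and 13.6 ± 5.22 CPM (SD, n = 4 each). The log2 fold change was 1.91 (SE 0.35, 95% interval 1.17 to 2.65), a fold of 3.76, with an edgeR adjusted p of 0.00053. With the muscle markers in the model the log2 fold change was 1.52 and the adjusted p 0.176.

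Resistin showed no call and the widest scatter within WT. Retn (ENSMUSG00000012705, chromosome 8, 3655770 to 3660110, plus strand) had 108, 57.8, 230.0 and 59.4 CPM in WT and 162, 82.1, 81.6 and 90.8 CPM in db/db. The groups overlapped, with WT replicate 3 above every other library. The means were 114 ± 80.9 and 104 ± 38.9 CPM (SD, n = 4 each), and the log2 fold change of −0.13 (SE 0.34, 95% interval −0.85 to 0.59) had an edgeR adjusted p of 0.82. Without WT replicate 3 the log2 fold change was 0.46, with an adjusted p of 0.217. The sign also turned with all libraries kept, at 0.047 in limma-voom, 0.016 in limma on the deposited log2 values and 0.060 with a replicate block, so no direction can be given.

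WT replicate 3 was the highest WT library for 6 of the 7 adipokines and the lowest for Nrg4. It also had the highest summed level of 10 pan-adipocyte markers in WT, 19441 CPM, where the WT libraries ranged from 13384 to 19441 CPM and the db/db libraries from 17680 to 22381 CPM. Among db/db libraries, replicate 1 was the highest for 4 of the 7 genes. With WT replicate 3 and db/db replicate 1 both left out, the 5 called genes remained called, at log2 fold changes of 5.62 for Lep, −2.26 for Cfd, 2.46 for Rarres2, −1.28 for Nrg4 and 1.74 for Metrnl.

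**Figure D2:**
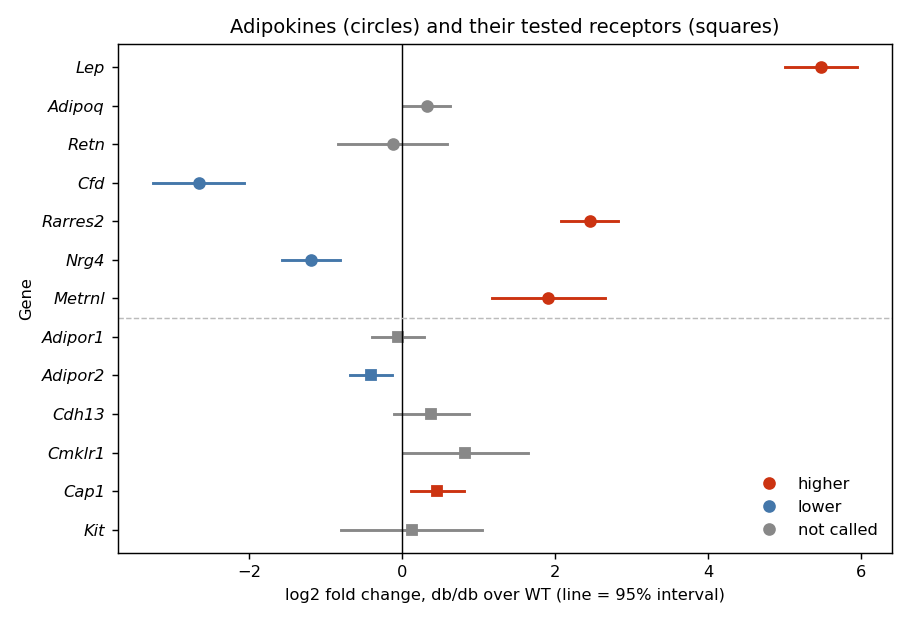
Log2 fold change of db/db over WT for the 7 adipokines (circles) and for the 6 listed receptors that could be tested (squares), with lines for 95% intervals, red for higher, blue for lower and grey for not called. Lep lies farthest right at 5.47 and Cfd farthest left at −2.66, while the receptors lie between −0.41 and 0.82.

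The order of the adipokines changed with genotype. Divided by exon length, Cfd led in WT with 3792 ± 1641 CPM per kilobase, before Adipoq with 1111 ± 174, Retn with 72.1 ± 51.2, Nrg4 with 20.3 ± 3.27, Rarres2 with 18.4 ± 4.21, Lep with 3.06 ± 0.939 and Metrnl with 2.29 ± 0.470 (SD, n = 4). In this order the ranges of Nrg4 and Rarres2 overlapped, as did those of Lep and Metrnl. In db/db, Adipoq led with 1382 ± 134 CPM per kilobase, before Cfd with 599 ± 253, Lep with 137 ± 28.6, Rarres2 with 100.5 ± 17.7, Retn with 66.0 ± 24.6, Nrg4 with 8.89 ± 2.24 and Metrnl with 8.60 ± 3.29. There the neighbours Lep and Rarres2, Rarres2 and Retn, and Nrg4 and Metrnl overlapped. Exon length is that of all annotated exons joined, and whether counts in these libraries grow with length is not stated. Without this division parts of the order differ. In CPM, Nrg4 (mean 123) was above Retn (mean 114) in WT, with overlapping ranges. In db/db, Lep (328 to 557 CPM) overlapped Cfd (387 to 899 CPM).

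As shares of the counts of the 7 genes, Cfd went from 64.3 ± 5.21% in WT to 16.2 ± 5.50% in db/db and Adipoq from 30.0 ± 5.01% to 56.9 ± 2.46%. Lep went from 0.203 ± 0.0811% to 13.7 ± 2.61%, and Rarres2 from 0.939 ± 0.126% to 8.01 ± 1.49% (SD, n = 4 each). Exact two-sided permutation tests gave p = 0.0286 for each of these shares, and shares of a common total are not independent. The 7 genes together took 0.537 ± 0.191% of all counts in WT and 0.331 ± 0.0495% in db/db (exact permutation p = 0.0571, n = 4 each).

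**Figure D3:**
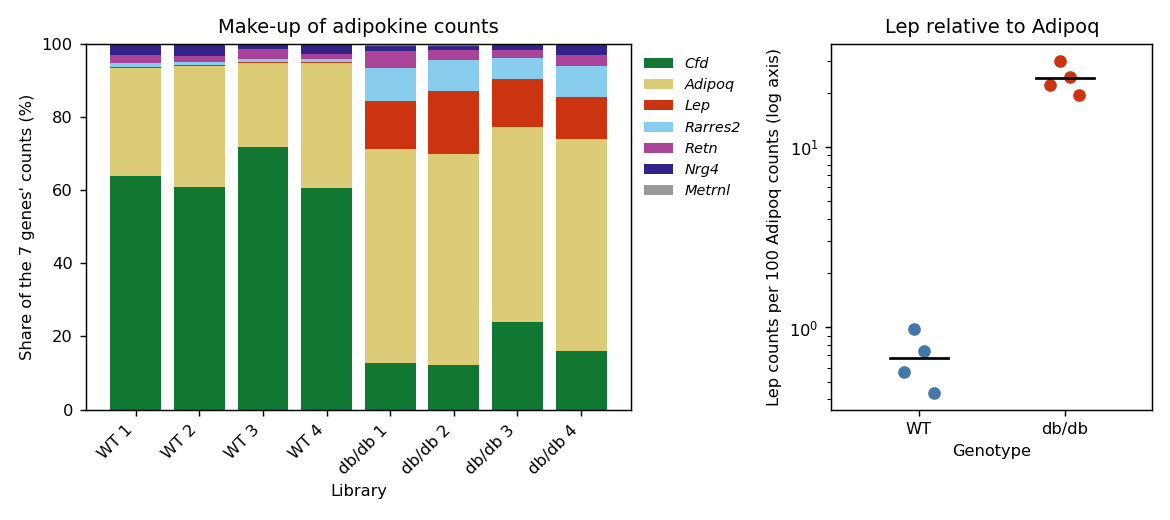
Left, the share of each adipokine in the counts of the 7 genes (percent, stacked bars, 1 bar per library); right, Lep counts per 100 Adipoq counts on a log axis, with 1 point per library and a bar at the mean. Cfd fills most of each WT bar and Adipoq most of each db/db bar, and the right panel shows 0.433 to 0.983 for WT against 19.5 to 30.1 for db/db.

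Around the 7 adipokines, 105 genes in 8 lists were followed, namely their receptors, signalling and assembly factors, regulators and other secreted products. Of these 70 passed the filter on low counts, 19 rose, 12 fell and 39 were not called. The called share was 44.3%, beside 27.7% of all genes tested, and the median log2 fold change was 0.14, beside 0.0066. With no filter on low counts, Tlr4, C5ar1, Lcn2, Ccl2, Gdf15, Fndc5 and Epdr1 were called higher in both edgeR and DESeq2. No listed gene below the filter was called lower there. Of the 31 calls, 12 held in every alternative model and scaling that gave a value, and 19 were lost when the muscle markers entered the model. The sums of these markers do not overlap between the genotypes, so that model cannot part their level from genotype. Over all genes tested, its calls fell from 2568 to 502. Pltp, Cap1, Stat5a, Irs2, Dpp4 and Cebpd share exon bases with a gene on the opposite strand and are uncertain to that extent.

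Of 13 listed receptors of these hormones, 6 had enough counts to be tested, of which 1 rose and 1 fell. This called share of 33.3% stood beside 27.7% of all genes tested. Adipor2, an adiponectin receptor, fell from 385 ± 48.0 to 289 ± 19.0 CPM (log2 fold change −0.41, SE 0.13, edgeR adjusted p = 0.0237), a call that was lost when any of 4 single libraries was left out. These were WT replicates 3 and 4 and db/db replicates 2 and 3, and the call was also lost with the muscle markers in the model (log2 fold change −0.51, adjusted p = 0.267). The resistin-binding protein gene Cap1 rose from 31.5 ± 2.99 to 43.4 ± 5.42 CPM with an adjusted p of 0.0449, and this call was lost in 17 of 21 alternatives. Adipor1, the other adiponectin receptor, had 69.3 ± 9.88 and 66.4 ± 12.7 CPM, and Cdh13, which binds adiponectin on vessel walls, had 28.5 ± 5.92 and 37.2 ± 12.6 CPM. The chemerin receptor gene Cmklr1 had 14 ± 9.71 and 24.7 ± 12.1 CPM (log2 fold change 0.82, 95% interval 0.00 to 1.64, adjusted p = 0.127). Its call depended on the setting, since it was called higher with every gene that had a count (log2 fold change 0.77, adjusted p = 0.00999), without WT replicate 3 (1.36, adjusted p = 0.0154) and without WT replicate 3 and db/db replicate 1 (0.96, adjusted p = 0.0461), but was at −0.27 with the muscle markers in the model. Erbb3 had 1 to 10 counts per library and Erbb4 0 to 6, below the filter on low counts. With no filter, the edgeR log2 fold change was −0.82 for Erbb3 (SE 0.77, adjusted p = 0.509). That of Erbb4 was −1.02 (SE 1.02, adjusted p = 0.528), and neither was called. With standard errors of this size, moderate differences in these neuregulin receptors could be missed at this depth.

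Among 11 tested genes of leptin receptor signalling, 1 rose and 2 fell, a called share of 27.3% beside 27.7% of all genes tested. The list was thus called about as often as genes at large. Irs2, an adaptor shared with insulin signalling, had 85.8, 192, 190 and 238 CPM in WT and 44.5, 54.7, 38.6 and 79.6 CPM in db/db. WT replicate 1 was the lowest WT library and still lay above all db/db libraries. The log2 fold change of Irs2 was −1.70 (SE 0.26, edgeR adjusted p = 9.91e-05). The transcription factor gene Stat5a fell by 0.76 on the log2 scale (adjusted p = 0.0226) and the adaptor gene Grb2 rose by 0.60 (adjusted p = 0.0211), and each of these calls was lost in 6 of 21 alternatives. Leaving out WT replicate 1 or 4 or db/db replicate 1 or 4 ended the call of Stat5a, and leaving out WT replicate 1 or 3 or db/db replicate 4 that of Grb2. The number of genes called higher was 0 to 2 over the alternatives that keep all libraries, with 2 when every gene with a count was tested. Socs3, the feedback inhibitor of the leptin receptor, had 2 to 4 counts per WT library and 4 to 19 per db/db library, below the filter on low counts. Its levels of 0.75 to 1.7 CPM in WT and 1.77 to 6.04 CPM in db/db did not overlap. With no filter on low counts its log2 fold change was 1.73 in edgeR (SE 0.64, adjusted p = 0.0384) and 1.77 in DESeq2 (SE 0.70, adjusted p = 0.0521), so that its call depended on the tool.

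For adiponectin, 1 of 5 assembly genes rose, namely Plod1, a lysyl hydroxylase, from 32.1 ± 6.64 to 49.8 ± 10.4 CPM (log2 fold change 0.64, adjusted p = 0.0193). This call was lost in 6 of 21 alternatives, among them leaving out WT replicate 3, WT replicate 4 or db/db replicate 4. The called share of the assembly genes was 20%, beside 27.7% of all genes tested. Of 7 genes of adiponectin receptor signalling, edgeR, DESeq2 and limma each called 0, whereas 1 was called lower with pan-adipocyte marker scaling and 1 higher without db/db replicate 4. At an unadjusted p under 0.05 in edgeR, 1 of them was higher and 1 lower.

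In the alternative complement pathway, which factor D opens, 5 of 7 tested genes rose while C3 fell together with Cfd. The called share of this list was 85.7%, beside 27.7% of all genes tested. C3, the component cleaved by the convertase that factor D completes, went from 230.3 ± 25.2 to 94.9 ± 32.9 CPM (log2 fold change −1.27, SE 0.19, edgeR adjusted p = 7.07e-05). C3ar1, the receptor for the C3a fragment, had 2.95 to 4.67 CPM in WT and 20.8 to 40.9 CPM in db/db, a log2 fold change of 2.76 (SE 0.30, adjusted p = 2.98e-06). Cfp, coding for properdin, which stabilises the convertase, went from 3.67 ± 2.07 to 14.3 ± 4.15 CPM (adjusted p = 0.000621). Of the other rises, that of Cr1l, coding for a complement regulator (log2 fold change 0.43, adjusted p = 0.0469), was lost in 18 of 21 alternatives. That of Cfb, the factor B gene, which shares exon bases with Gm20547 and is uncertain to that extent (log2 fold change 1.19, adjusted p = 0.0198), was lost without db/db replicate 1 and with the muscle markers. With 10 counts required in every library, and likewise with the muscle markers in the model, 1 gene of this list was called higher and without db/db replicate 1 the number was 3. The median log2 fold change of the list was 1.19. Of the 10 macrophage markers, 9 rose in the same libraries, or 90% beside 27.7% of all genes tested. The part of these markers in the rises of C3ar1 and Cfp was not tested.

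Genes that code for known regulators of adipokine transcription mostly did not pass the test, with 1 of 11 higher and 1 lower. This called share of 18.2% stood beside 27.7% of all genes tested. The number lower was unstable, at 0 to 5 over the alternatives that keep all libraries and 1 to 3 when single libraries were left out. At an unadjusted p under 0.05 in edgeR, 4 of the 11 were lower. Cebpd, a C/EBP family member, rose from 14 ± 2.54 to 25.3 ± 3.87 CPM (log2 fold change 0.85, adjusted p = 0.00589), and Sp1, a GC box binding factor, fell from 84.7 ± 10.7 to 53.7 ± 7.50 CPM (log2 fold change −0.66, adjusted p = 0.00326). Both calls were lost when the muscle markers entered the model, with log2 fold changes of 0.55 for Cebpd (adjusted p = 0.515) and −0.54 for Sp1 (adjusted p = 0.364). Pparg and Cebpa, central to adipocyte differentiation, had log2 fold changes of −0.39 and −0.19 with adjusted p-values of 0.34 and 0.39.

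Of 31 other adipokines, 17 were tested, 7 rose and 5 fell. The called share was 70.6%, beside 27.7% of all genes tested. Sfrp5, a secreted Wnt inhibitor, had 0 to 10 counts per WT library and 62 to 266 per db/db library (log2 fold change 4.86, SE 0.55, edgeR adjusted p = 5.25e-06). Its db/db values scattered widely, from 23.1 to 118 CPM. The call held at a log2 fold change of 3.42 with the muscle markers in the model (adjusted p = 0.0112) and at 4.34 to 5.45 when single libraries were left out, highest without WT replicate 4. Retnla, a relative of resistin that macrophages also make, went from 28.7 ± 4.62 to 228 ± 85.6 CPM (log2 fold change 2.99, SE 0.22, adjusted p = 4.19e-08). Dpp4, a peptidase shed from fat cells, rose from 2 to 3 counts per WT library to 10 to 34 per db/db library (adjusted p = 0.000421), a call lost with the muscle markers in the model (log2 fold change 1.85, adjusted p = 0.197). Of the whole list, 3 genes were called lower without WT replicate 2, WT replicate 4 or db/db replicate 4, and 0 with the muscle markers.

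Of 16 other hormones ascribed to brown fat, 6 were tested, 3 rose and 2 fell. The called share was 83.3%, beside 27.7% of all genes tested. Over the alternatives that keep all libraries, 2 to 6 genes of this list were called higher and 1 to 2 lower. With no filter on low counts, edgeR also called Gdf15, Fndc5 and Epdr1 higher, at log2 fold changes of 3.83, 3.59 and 2.26 (adjusted p = 0.000596, 5.91e-08 and 0.00016). Cxcl14, a chemokine released by brown fat, went from 106 ± 22.7 to 21 ± 11.0 CPM (log2 fold change −2.30, SE 0.26, edgeR adjusted p = 5.48e-06). Il1rn, the interleukin 1 receptor antagonist, had 0 or 1 count per WT library and 24 to 62 per db/db library (adjusted p = 2.25e-06), so that no fold is given. The phospholipid transfer protein gene Pltp went from 13.4 ± 3.36 to 61.2 ± 16.2 CPM (adjusted p = 1.97e-06), and S100b, coding for a calcium-binding protein that promotes innervation of brown fat, from 126 ± 27.7 to 385 ± 119 CPM (adjusted p = 1.6e-05).

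**Figure D4:**
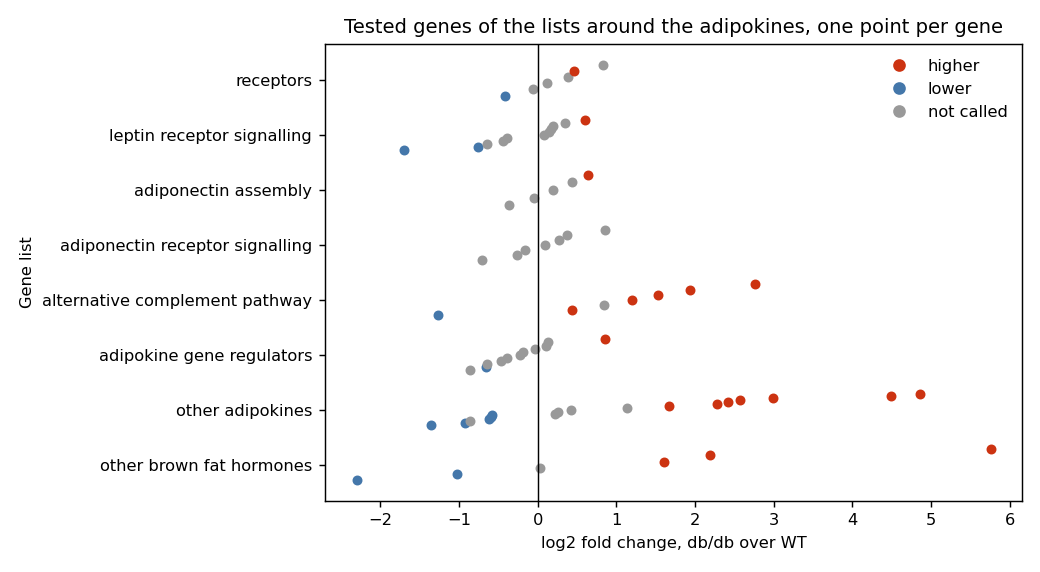
Log2 fold change of db/db over WT for each tested gene of the 8 lists, 1 point per gene, red for higher, blue for lower and grey for not called. The points of both signalling lists lie within 1 of 0 except Irs2 at −1.70, while the lists of other adipokines and brown fat hormones spread to both sides; the point farthest right is Il1rn, whose WT libraries held 0 or 1 count each.

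Brown and white adipocyte markers moved in the same libraries as the adipokines. Of 9 tested brown adipocyte markers 6 fell, and their summed level was 9490 to 11253 CPM in WT and 3964 to 7054 CPM in db/db. Of 5 tested white adipocyte markers 3 rose, and the summed level of the whole list was 49.0 to 129.9 CPM in WT and 1269 to 2354 CPM in db/db. The white fat developmental genes Tcf21 and Hoxc10 were at 0 counts in all 8 libraries. Of 10 pan-adipocyte markers 4 rose and 3 fell. The called shares were 66.7% for the brown, 60% for the white and 70% for the pan-adipocyte markers, beside 27.7% of all genes tested. When the libraries were scaled to the pan-adipocyte markers instead of by TMM, the same number of adipokines was called higher (3) and lower (2). The part of these markers in the adipokine differences was not tested.

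The genes with levels most like each called adipokine were sought among 6698 genes with a mean of at least 10 CPM, as the smallest root mean square difference of log2 CPM over the 8 libraries after centring on the WT mean. For Lep these were Sncg (0.44), a synuclein gene, and Cryab (0.67), a small heat shock protein gene. Sncg went from 10.9 ± 3.41 to 484 ± 82.7 CPM and Cryab from 18.7 ± 3.47 to 495 ± 137 CPM. For Cfd they were Ces1f (0.46), a carboxylesterase gene, and Mycl (0.57), a Myc family gene, which fell to 4.07 ± 2.53 and 3.95 ± 1.43 CPM. Their db/db values rest on only 5 to 21 counts per library for Ces1f and 7 to 15 for Mycl, where Cfd had 1217 to 2028. For Rarres2 they were the protease gene Htra3 (0.16) and the adaptor gene Nedd9 (0.19). For Nrg4 they were Rgs7 (0.0967), a regulator of G protein signalling, and Acat2 (0.108), a thiolase gene, and for Metrnl the protease gene Htra1 (0.19) and Igfbp6 (0.21), coding for a binding protein of insulin-like growth factors. All these libraries share the 2 genotypes, so the likeness is a description.

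**Figure D5:**
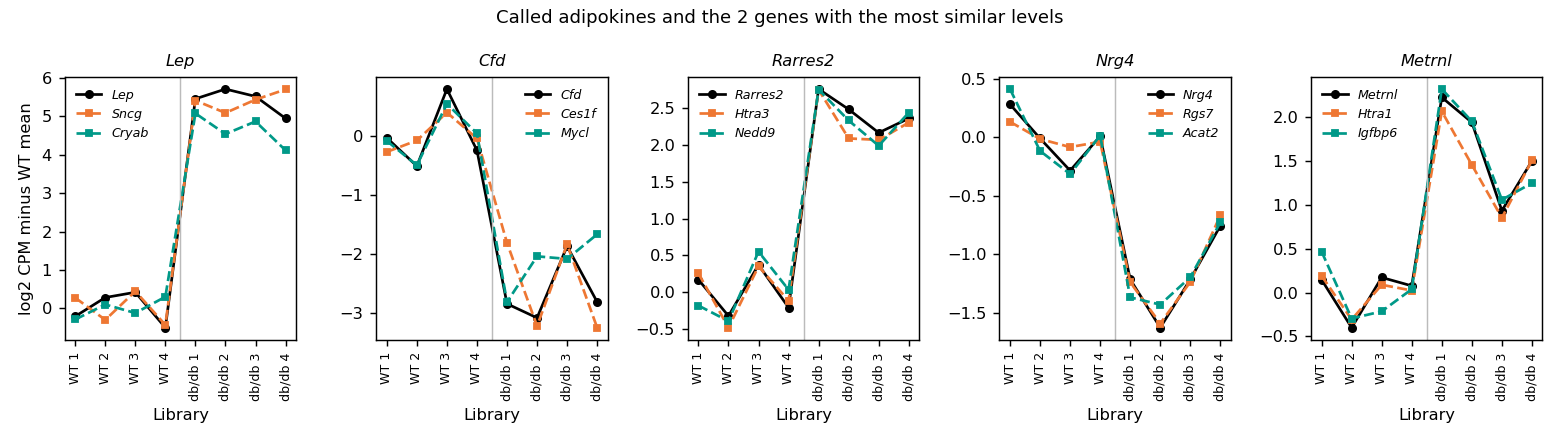
Log2 CPM minus the WT mean in the 8 libraries for each of the 5 called adipokines (black) and the 2 genes with the most similar levels (orange and green); the grey line parts WT from db/db. By root mean square difference the lines of Nrg4 with Rgs7 lie closest (0.0967), and those of Lep with Cryab farthest apart (0.67).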

How the data were processed

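BAT mRNA of 4 WT and 4 db/db samples was sequenced single-end, and the genotype and replicate number were read from the sample titles. Per the study's methods, the authors used bbduk for trimming, STAR for alignment to mm10 and HTSeq-count for gene counts, and raw counts were deposited. The submitters' processing notes instead name Trimmomatic, HISAT2 and DESeq2. Strand use and collapsing of molecular identifiers are not given in the sources used here. The authors also deposited log2 values, which were found to be log2 of a library constant times the count plus 1, and these served as an alternative only.

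Of 31053 genes, 30934 matched GENCODE M21 (GRCm38/mm10). Genes were filtered with filterByExpr (minimum count 10, minimum total 15), which left 9264, scaled by TMM and tested in edgeR 4.0.16 (R 4.3.3) by its quasi-likelihood method, in a model of genotype alone with Benjamini-Hochberg adjusted p under 0.05 as the call. Standard errors were derived from the F statistic. CPM use the filtered totals times the TMM factor, and log2 CPM a prior count of 2. The floor of detection covers counting error only. The intervals of log2 fold changes come from the edgeR fit and also include variation between libraries. Alternatives were DESeq2 1.42.0, limma 3.58.1, other scalings and filters, a muscle marker covariate, a replicate block and leaving out libraries. Leaving out WT 3 and db/db 1 together was chosen after seeing the data. The 7 adipokines and all gene lists were chosen with earlier results of these data known. Named were the 7 adipokines, 7 receptors, up to 4 called genes per list with the largest log2 fold change, and the 2 most similar genes per called adipokine. Some genes that this rule names are not reported here. The marker genes, Fbxo22, Lrrc61, Socs3, Cr1l, Cfb, Pparg and Cebpa were named after their values were seen. So were Tlr4, C5ar1, Lcn2, Ccl2, Gdf15, Fndc5 and Epdr1. Promoter windows came from RefSeq (GRCm38.p6).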

Additional observations from a re-analysis of the deposited data

Results flagged for a closer look

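In 100 groups of 4 libraries examined for a sample far from the others by Dixon's criterion, 6 stood out, where chance gives about 5. Among the adipokines, Retn was high in db/db replicate 1 at 162 CPM (others 81.6 to 90.8 CPM), and Cfd was high in db/db replicate 3 at 899 CPM (others 387 to 467 CPM). Among the genes around them, C3ar1 had 40.9 CPM in db/db replicate 1 (others 20.8 to 23.4 CPM) and Retnla 355 CPM in the same library (others 171 to 201 CPM). Cfp had 6.76 CPM in WT replicate 3 (others 2.43 to 2.95 CPM). The summed level of 6 endothelial markers was 238 CPM in db/db replicate 1 (others 208 to 211 CPM). No cause was tested.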

How the results depend on the processing

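The calls of Lep, Cfd and Rarres2 held in all 21 alternatives. Leaving out 1 library at a time gave log2 fold changes of 5.32 to 5.63 for Lep, 0.23 to 0.40 for Adipoq, −3.00 to −2.34 for Cfd, 2.33 to 2.57 for Rarres2, −1.37 to −1.07 for Nrg4 and 1.68 to 2.10 for Metrnl, with 3 adipokines higher and 2 lower each time. It left 16 to 18 list genes higher and 8 to 12 lower, and a log2 Lep to Adipoq ratio difference of 4.90 to 5.27. With the muscle markers in the model, whose sums do not overlap between the genotypes, 1 adipokine was lower, 9 list genes were higher and 3 lower, and 502 genes were called in place of 2568. The cause was not tested. Asking for 10 counts in every library left 12 list genes higher, of 55 tested. Other settings raised these counts from 19 higher and 12 lower, to 27 and 16 with every gene that had a count, to 24 higher with DESeq2 and to 16 lower with pan-adipocyte marker scaling. For the Lep to Adipoq ratio, leaving out WT 3 and db/db 1 gave 5.17 (exact p = 0.1), the smallest p that 3 against 3 libraries allow. Some genes that were not called changed sign. Retn became 0.16 with both libraries left out, 0.016 with limma on the deposited log2 values, 0.047 with limma-voom, 0.060 with the replicate block, and ranged from −0.44 to 0.46 when single libraries were left out. Adipor1 became 0.065 with both left out and 0.061 with the muscle markers, and ranged from −0.20 to 0.019 when single libraries were left out. Cdh13 became −0.0079 and Cmklr1 −0.27 with the muscle markers.

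Same-numbered WT and db/db samples did not deviate together (correlations 0.038, 0.049, −0.078 and −0.014), so the numbers were not taken to pair them. With the replicate block, 2557 genes were called, the adipokine counts stayed at 3 higher and 2 lower, and the ratio difference of 5.08 had an exact p of 0.125, the smallest that 4 pairs allow. Erbb4, at 0 to 6 counts per library, shows where this depth limits precision. With no filter on low counts, its edgeR log2 fold change of −1.02 had an SE of 1.02.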
